A study of Oryza sativa Japonica Group and Oryza sativa with 4 samples.

Results

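The response of rice leaves to the green rice leafhopper (GRH), a sap-feeding insect, was compared gene by gene between a susceptible and a resistant line, to see which genes changed differently in the lines. The response of a line is the log2 ratio of infested to uninfested FPKM, after 1 was added to each FPKM (a read level scaled by transcript length and library size). The difference of responses is the response in the resistant line minus that in the susceptible line, on the log2 scale. A positive value means that the gene was held higher, or lowered less, by GRH in the resistant line. The ranking was limited to genes with a mean of at least 100 estimated reads over the 4 libraries, which left 4769 of 37849 genes (12.6%). No sequences are shown, since the values rest on annotated genes and none of the files used here holds their sequence.

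The susceptible line was Ilpum, a japonica cultivar taken as the wild type. The resistant line was a near isogenic line (NIL) that carries the resistance locus Grh1, brought from the indica parent Shingwang into Ilpum by crossing. Leaves came from seedlings aged 21 days, kept without insects (Ilpum control, NIL control) or for 48 h with second instar GRH nymphs (Ilpum GRH, NIL GRH). There is 1 library per condition, so no difference below has a replicate check, an SD or a p-value. A NIL can also carry other donor segments and differs from Ilpum in all conditions, and the line itself cannot be told apart from the seedlings sampled for it.

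Plants fed on by sucking insects lose sap and are wounded, and they commonly switch on jasmonate-dependent defence while lowering photosynthesis genes. Abscisic acid (ABA) is the plant hormone of water shortage. It is made from carotenoids, and it induces transcription factors, protective proteins such as dehydrins, and sugars of the raffinose family. Jasmonate is made from fatty acids through lipoxygenase and induces protease inhibitors and other defence proteins.

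Over the 4769 genes the median response was -0.18 in Ilpum and -0.01 in NIL, and the median difference of responses was 0.15. The middle 50% of the differences lay between -0.38 and 0.71. A total of 785 genes (16.5%) had a response at least 2-fold higher in NIL, and 402 (8.43%) a response at least 2-fold lower. At 4-fold these numbers were 159 and 65. The higher genes thus made up 66.1% of the 2-fold differences, but this split depended on the scaling: with each response centred on its own median it was 50.5% (584 higher and 572 lower). Below, the median of a list is therefore read against the overall median of 0.15. Its counts are read against the 16.5% higher and 8.43% lower among all genes.

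The ends of the ranking were built differently. Of the 785 genes with the higher response in NIL, 466 were lower with GRH in Ilpum and higher in NIL, 259 were lower in both lines but less so in NIL, and 59 were higher in both. Their median response was -1.24 in Ilpum and 0.28 in NIL. Of the 402 genes with the lower response in NIL, 211 were higher with GRH in Ilpum and lower in NIL, 95 were higher in both and 95 were lower in both, and their medians were 0.74 and -0.70. The same difference can be read as the gap between the lines. At the high end the uninfested lines were close (median log2 ratio of NIL to Ilpum -0.14) and the infested lines apart (1.37). At the low end the ratio was 0.44 without GRH and -0.99 with GRH.

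**Figure D1:**
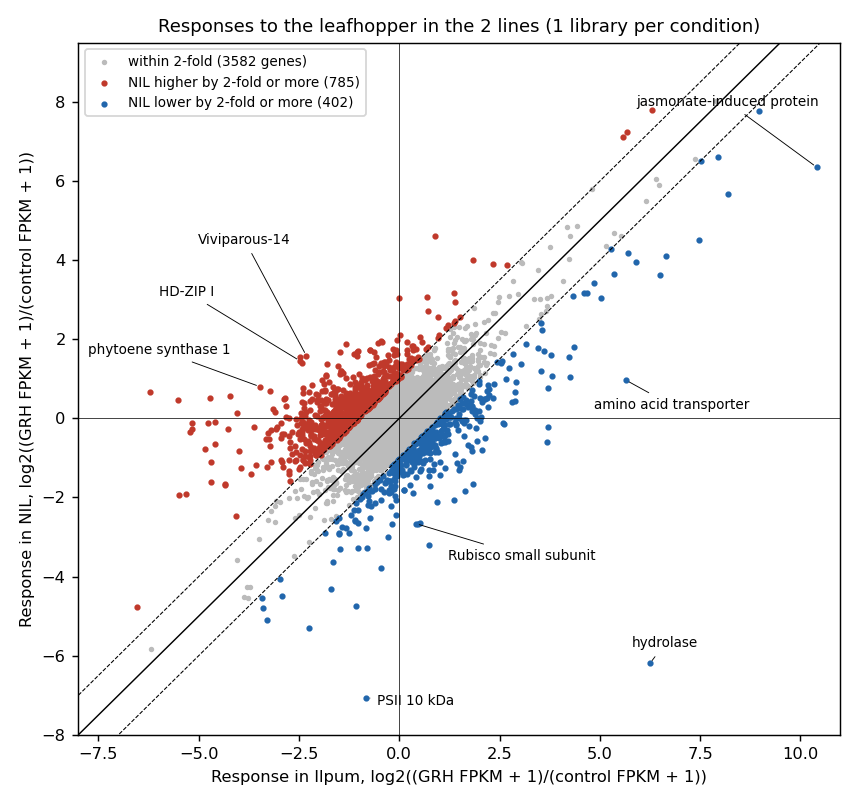
Response to GRH in NIL (y axis) against that in Ilpum (x axis), both log2 ratios of FPKM + 1, for the 4769 genes tested. The solid line marks equal responses and the dashed lines a 2-fold difference. The 785 red genes lie above it, mostly where Ilpum is below 0, and the 402 blue genes lie below it.

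Depth bears on these values. The estimated reads summed to between 894661 (Ilpum GRH) and 5037081 (NIL control), so that NIL control supplied a median of 54.4% of the reads of a tested gene. Among the genes tested, 34 were listed at 0 in Ilpum GRH, against 12 in Ilpum control and 7 in each NIL library. The counting interval given below is the exact 95% interval of the difference of responses from the reads of the 4 libraries, scaled to their totals. It covers counting error only and excluded 0 in 52.7% of the genes. The FPKM of a gene sums over its transcripts and can leave that interval when transcripts of different length trade places. The difference lay outside its interval in 198 genes, 195 of which have several annotated transcripts. Whether transcripts traded places in them was not tested. Just inside the minimum, with a mean of 100 reads, were Os05g0374500 (difference -1.60) and Os05g0177500 (0.92), and just outside, with 99.75 reads, were Os01g0846450 (1.92) and Os09g0508300 (0.58).

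The high end held single regulators and enzymes of the ABA and water-stress response, which were lower with GRH in Ilpum and, in NIL, higher, near level or lowered less. Os02g0649300 is an HD-ZIP I transcription activator of the stress response (chromosome 2, 26143311 to 26144729, coordinates here and below from IRGSP-1.0). Its FPKM in Ilpum was 632 without GRH and 113 with it, but 356 and 979 in NIL. The difference of responses was 3.93 (counting interval 3.65 to 4.18), and NIL GRH was the highest and Ilpum GRH the lowest of the 4 libraries. The study chose this gene for qPCR on the basis of these samples, so its place is not independent of them. The related factor HOX22, Os04g0541700 (chromosome 4, 27124166 to 27125512), stood at 245, 68.2, 243 and 516 FPKM in the same order of libraries, a difference of 2.91 (2.40 to 3.23). The uninfested lines had nearly the same HOX22 level, and the infested lines lay on opposite sides of it.

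Enzymes on the route to ABA showed this pattern too. Os07g0154100 is described as similar to Viviparous-14, the maize 9-cis-epoxycarotenoid dioxygenase that cleaves carotenoids in the step committed to ABA (chromosome 7, 2870686 to 2872829). Ilpum had 267 FPKM uninfested and 52.7 infested, and NIL 173 and 522, a difference of 3.90 (3.59 to 4.20) from 109 to 1940 reads per library. Os06g0729000, phytoene synthase 1, makes the first carotenoid of the pathway (chromosome 6, 31051983 to 31055919). It stood at 46.9, 3.30, 33.1 and 58.4 FPKM, a difference of 4.28 (3.40 to 6.10), with only 6 reads in Ilpum GRH. For zeaxanthin epoxidase, Os04g0448900, which acts between these enzymes, the levels were 101, 40.0, 112 and 97.7 FPKM and the difference was 1.13 (0.72 to 1.51). A second Viviparous-14 gene, Os12g0617400, was lower with GRH in both lines (responses -1.18 and -0.70), and its interval of -0.33 to 1.29 included 0. ABA 8'-hydroxylase 1, Os02g0703600, breaks ABA down and was at the other end, with 28.6, 102, 37.9 and 51.4 FPKM and a difference of -1.37 (-1.83 to -1.01).

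Signalling genes followed. The ABA signal runs from receptors to protein phosphatases 2C, some of which block it, and to the kinases they block. Of 17 protein phosphatase 2C genes tested, which include members outside ABA signalling, 6 had a response at least 2-fold higher in NIL and 2 at least 2-fold lower, and the median difference was 0.48. Os06g0698300 had 147 and 14.7 FPKM in Ilpum and 271 and 189 in NIL (difference 2.72, interval 2.07 to 3.57). Os09g0325700 had 307 and 121 FPKM in Ilpum and 239 and 484 in NIL (2.35, 2.06 to 2.60). The phosphatase Os04g0659500 went the other way, with responses of 1.58 in Ilpum and -1.07 in NIL. An ABA-activated kinase, Os12g0586100, had 64 reads in Ilpum control and was listed at 0 in Ilpum GRH, with 250 and 87 reads in NIL. With 3 reads in place of the 0 it was 9.004-fold lower in Ilpum, and the 95% counting interval of that response lay below -2.83. The ABA receptor gene tested, Os05g0213500, had responses of 0.26 and 0.18, and a difference of -0.09 with an interval of -0.70 to 0.47.

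In 25 tested genes the description of a transcript named ABA, a step of its synthesis or ABI5. Of these, 8 (32.0%) had a response at least 2-fold higher in NIL and 1 at least 2-fold lower, with a median difference of 0.49 beside 0.15 for all genes. Their median response was -0.54 in Ilpum and 0.33 in NIL, and 10 were at least 2-fold lower with GRH in Ilpum against 0 in NIL. Among all genes tested, 18.7% were at least 2-fold lower with GRH in Ilpum and 9.29% in NIL. A wider list of 44 genes, which adds the protein phosphatases 2C and kinases of hyperosmotic stress whether or not ABA is named, had 14 higher, 3 lower and a median of 0.48. These lists, and those of HD-ZIP factors, raffinose enzymes, cellulose synthases and Rubisco small subunits below, were drawn up after the values had been seen.

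The enzymes of raffinose-family sugars, which protect cells that lose water, had a median difference of 1.42 in 7 genes, 4 of them at least 2-fold higher in NIL and 0 at least 2-fold lower. Os10g0492900, an alpha-galactosidase that splits such sugars, stood at 301, 83.9, 291 and 622 FPKM, a difference of 2.92 (2.54 to 3.28). WSI76, Os07g0687900, was named for its induction by water stress and resembles galactinol synthase. It had 218 and 41.8 FPKM in Ilpum and 243 and 252 in NIL, a difference of 2.41 (1.96 to 2.83). Raffinose synthase Os08g0495800 had 101 and 21.5 FPKM in Ilpum against 86.2 and 80.8 in NIL (2.10, 1.66 to 2.58), and galactinol synthase Os03g0316200 had 49.3 and 16.3 against 71.8 and 65.8 (1.42, 0.71 to 2.22). WSI76 and both synthases were thus near level in NIL and lower with GRH in Ilpum. The other alpha-galactosidases, Os10g0493600 and Os07g0679300, had differences of -0.31 and -0.42.

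**Figure D2:**
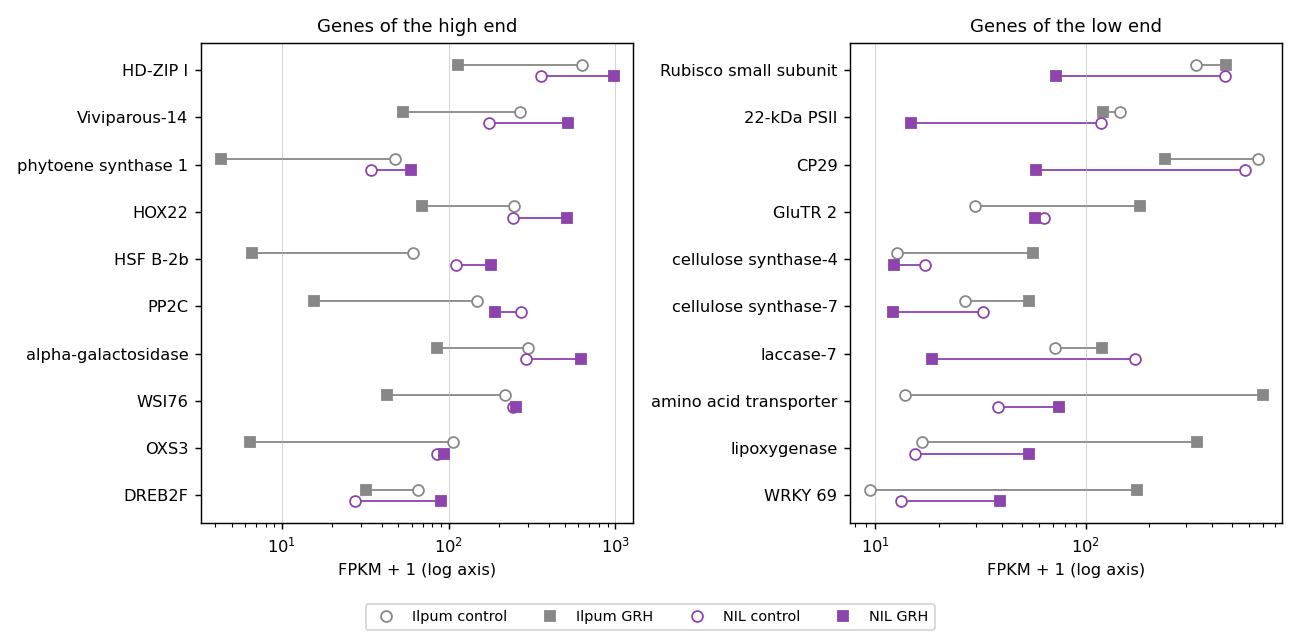
FPKM + 1 on a log axis in the 4 libraries for 10 genes of the high end (left) and 10 of the low end (right), with open circles for control and filled squares for GRH, grey for Ilpum and purple for NIL. At the high end the grey square is the lowest point of every gene but DREB2F (31.1 FPKM, against 26.6 for NIL control). At the low end NIL GRH is below Ilpum GRH in every gene shown. The genes were picked by hand from the ends of the ranking after their values had been seen, so these shared patterns follow in large part from the choice.

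Dehydrins and LEA proteins, which shield membranes and proteins in drying cells, were lower with GRH in both lines in several cases and differed less. Os11g0454300, similar to the water-stress protein RAB21, had 3310 and 494 FPKM in Ilpum and 6914 and 2630 in NIL, a difference of 1.35 (1.15 to 1.49). Dehydrin Os02g0669100 went from 1477 to 438 FPKM in Ilpum and stood at 2200 and 1973 in NIL (1.59, 1.42 to 1.71). For the neighbouring dehydrin Os11g0454200 the difference was 0.72 (0.24 to 1.18), with responses of -2.74 and -2.02. Of all 67 genes described by dehydrin, LEA, drought or water stress, 5 were among the 100 highest of the ranking and 4 among the 100 lowest. Over the 67, 15 (22.4%) were at least 2-fold higher in NIL and 8 (11.9%) lower, and the median of 0.16 was close to that of all genes. Among the lower ones was Os03g0230500, an inositol trisphosphate kinase of drought and salt tolerance (18.6, 26.9, 37.9 and 5.22 FPKM, difference -3.16). Its description also names it a negative regulator of osmotic stress signalling. L-ascorbate oxidase Os06g0567900, also among the lower ones, had 0 reads in Ilpum control and 188, 78 and 253 in the others.

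Other transcription factors stood among the highest. Heat stress factor B-2b, Os08g0546800, had 60.1 and 5.58 FPKM in Ilpum against 110 and 178 in NIL (difference 3.90, 2.95 to 5.09). The ERF-domain factor Os05g0572000 had 57.4 and 10.1 against 65.0 and 111 (3.16, 2.27 to 4.12). DREB2F, Os04g0648900, which belongs to the factors that bind the dehydration-responsive element, had 64.7 and 31.1 against 26.6 and 89.4 (2.74, 2.12 to 3.43). In each of the 3 genes Ilpum GRH was below Ilpum control and NIL GRH above NIL control. The NAC gene Os07g0683200 was instead higher with GRH in both lines, with 103 and 167 FPKM in Ilpum and 62.9 and 540 in NIL (2.39, 2.10 to 2.66). Of 26 factors with an AP2 or ERF domain, 8 were at least 2-fold higher in NIL and 1 lower (median 0.67). A first list of 59 genes for this family, with a median of 0.13, had also taken up unrelated proteins whose descriptions hold the letters ERF, and was narrowed after the values had been seen. Of the 16 genes matched as NAC factors, which include genes of the unrelated nascent polypeptide-associated complex, the numbers were 5 and 1 (median 0.70). Of the 12 bZIP genes they were 3 and 0 (median 0.52), with the factor similar to ABI5, a bZIP of ABA signalling, at 1.41 (Os09g0456200, 0.80 to 2.09). The 6 HD-ZIP genes had a median of 1.32, from -0.12 to 3.93, and that median ran from 0.47 to 3.42 over the alternatives.

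Protection against oxidants and low oxygen was represented by single genes. Os02g0684400, similar to OXS3, an oxidative stress gene of Arabidopsis, had 105 and 5.47 FPKM in Ilpum and 83.9 and 92.7 in NIL (difference 4.18, 2.75 to 5.75). Non-symbiotic haemoglobin 2, Os03g0226200, was lower in both lines, with 165 and 2.67 FPKM in Ilpum and 58.9 and 14.7 in NIL and 2 and 14 reads after infestation (3.56, 1.77 to 7.11). The antioxidant enzymes as a list did not stand apart, with 6 of 54 at least 2-fold higher in NIL, 2 lower and a median of 0.14. An EF-hand protein, Os07g0619200, differed through its control: it had 148 and 275 FPKM in Ilpum but 6.38 and 180 in NIL, a difference of 3.73 that lies outside its counting interval of 3.79 to 5.12.

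UDP-glycosyltransferases attach sugars to hormones and defence compounds. In this family 9 of 19 genes (47.4%) had a response at least 2-fold higher in NIL and 1 at least 2-fold lower, with a median of 0.92, of -0.81 for the responses in Ilpum and of -0.04 for those in NIL. Os04g0206500 had 47.2 and 11.7 FPKM in Ilpum against 40.1 and 80.0 in NIL (2.90, 2.13 to 3.75), while its near neighbour by number Os04g0206700 had a difference of -1.13. Cytochromes P450, oxidases of many pathways, were spread to either side, with 9 of 36 higher, 6 lower and a median of 0.51.

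Genes of carbon and nitrogen supply were also present. Beta-amylase, which breaks starch down to maltose, was represented by Os03g0141200, with 574 and 139 FPKM in Ilpum and 928 and 963 in NIL (2.09, 1.88 to 2.27), and by Os03g0351300 at 1.87. The glyoxylate-cycle enzyme isocitrate lyase, Os07g0529000, had 346 and 398 FPKM in Ilpum and 848 and 3241 in NIL (1.73, 1.57 to 1.84), and malate synthase, Os04g0486950, of the same cycle, had a difference of 1.61. Genes of nitrogen assimilation differed among themselves. Nitrite reductase, Os01g0357100, had 935 and 54.8 FPKM in Ilpum against 588 and 106 in NIL (1.61, 1.33 to 1.94), and nitrate reductase Os08g0468100 from 759 to 125 and from 223 to 105 (1.51, 1.31 to 1.75). A further nitrate reductase, Os02g0770800, had 112 and 33.5 FPKM in Ilpum but 9.02 and 9.05 in NIL (1.71). Glutamate dehydrogenase Os04g0543900 went the other way, with 26.7 and 106 FPKM in Ilpum and 30.1 and 30.4 in NIL (-1.93). Of the 43 genes of amino acid and nitrogen metabolism, 12 were at least 2-fold higher in NIL, 2 lower, and the median was 0.43. For 45 sugar and starch genes the numbers were 10 and 2, with a median of 0.17.

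Above all of these in rank stood genes listed at 0 in Ilpum GRH. Of the 100 highest genes, 22 had a 0 there, and the value of such a gene depends on the constant added. Os03g0806600, a conserved hypothetical protein, had 144 and 0 reads in Ilpum and 297 and 112 in NIL. With 3 reads put in place of the 0, it was 20.3-fold lower with GRH in Ilpum (counting interval of the log2 response below -4.02). Os03g0848200, similar to phytase, had 192, 0, 373 and 121 reads (27.0-fold lower in Ilpum in the same way, interval below -4.44). Os01g0794400, a thioredoxin-domain protein, had 79, 0, 282 and 96 reads (11.1-fold lower in Ilpum, interval below -3.14). In NIL the responses of Os03g0806600, Os03g0848200 and Os01g0794400 were 0.68, 0.47 and 0.52.

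The low end held genes of photosynthesis, though 3 photosystem, 2 Rubisco and 2 chlorophyll genes were among its 100 lowest. Rubisco, the enzyme that fixes carbon dioxide, takes its small subunit from a family on chromosome 12. All 4 genes tested had a response at least 2-fold lower in NIL, with a median of -2.34. Os12g0291400 (chromosome 12, 11277247 to 11278306) stood at 334 and 464 FPKM in Ilpum and at 462 and 71.1 in NIL (difference -3.16, interval -3.58 to -2.83). For Os12g0291100 (11262587 to 11263636) the values were 1255 and 1672 in Ilpum and 2033 and 321 in NIL (-3.07, outside the interval of -2.93 to -2.55 from the reads of its 3 transcripts). The more distant Os12g0274700 was lower in both lines, from 2109 to 1025 FPKM and from 2082 to 333 (-1.60, -1.82 to -1.43), and Os12g0292400 had a difference of -1.34. NIL GRH was thus the lowest library for every member. These copies are close in sequence, so the way reads were shared among them is uncertain, whereas their sum is less so: it was 3980, 3330, 4720 and 758 FPKM over the 5 annotated genes.

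The 32 photosystem and antenna genes had a median difference of -0.98. In 16 (50.0%) the response was at least 2-fold lower in NIL and in 2 at least 2-fold higher, and 29 of 32 were below 0. Nearly all were lower with GRH in both lines, with median responses of -0.91 in Ilpum and -1.61 in NIL. At least 2-fold lower were 11 genes in Ilpum and 25 in NIL. The 22-kDa photosystem II protein, Os01g0869800, which sheds excess light energy (chromosome 1, 37697024 to 37699582), had 144 and 120 FPKM in Ilpum and 118 and 13.8 in NIL (-2.73, -3.67 to -2.09). CP29, Os07g0558400, a minor antenna protein of photosystem II, had 662 and 238 against 574 and 57.2 (-1.83, -2.25 to -1.50). The 10-kDa polypeptide gene Os07g0147500 had 184 and 45 reads in Ilpum and 432 and 0 in NIL. With 3 reads in place of the 0 it was 33.5-fold lower in NIL, and the 95% counting interval of that response lay below -4.76. Its paralog Os08g0200300, at 1196 to 3189 FPKM, had a difference of -0.46. Both exceptions at the other side, Os04g0473150 (photosystem II protein D1, 1.02) and Os11g0592350 (protein K, 1.71), are nuclear loci whose proteins are normally encoded in the plastid. Whether plastid reads were counted there was not tested.

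Chlorophyll synthesis had 4 of 7 genes at least 2-fold lower in NIL, 0 higher and a median of -1.06. The largest difference was that of glutamyl-tRNA reductase 2, Os10g0502400, which opens the pathway: it went from 28.9 to 181 FPKM in Ilpum and stayed at 62.2 and 56.3 in NIL (-2.75, -2.93 to -1.99). The cyclase subunit Os01g0279100 had 169 and 101 FPKM in Ilpum and 203 and 34.5 in NIL (-1.78). Of 22 genes matched as Calvin cycle, which include chaperonins that bind Rubisco, 5 were at least 2-fold lower and 1 higher (median -0.52). For photorespiration the list of 15 had a median of -0.25, but 3 of its genes were phosphoglycerate kinases. Without them the median of 12 was 0.07, with 1 lower and 1 higher. Cytosolic ribosomal proteins (96 genes, median -0.04), proteasome subunits (31, -0.09) and translation factors (52, -0.01) lay close together around 0, with 3 and 6, 2 and 2, and 4 and 4 genes at least 2-fold lower and higher.

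**Figure D3:**
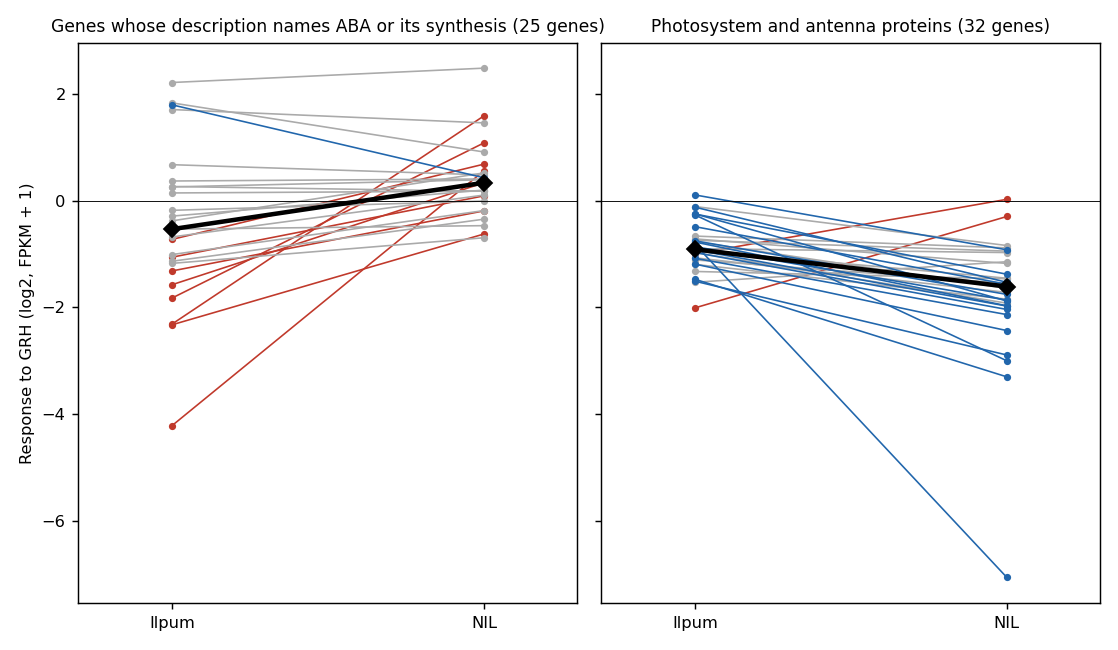
Response to GRH (log2 ratio of FPKM + 1) in Ilpum and in NIL for each of 25 genes whose description names ABA or its synthesis (left) and 32 photosystem and antenna genes (right). Lines join the values of a gene, red where NIL is at least 2-fold higher and blue where at least 2-fold lower, and black diamonds are medians, which go from -0.54 to 0.33 on the left and from -0.91 to -1.61 on the right.

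Markers of cell types showed that leaf tissue was sampled in each library, with chlorophyll a/b-binding genes summing to 27500, 14200, 18900 and 6300 FPKM. Pollen allergen genes summed to between 39.6 and 81.0 FPKM, and histone genes, which mark dividing cells, to 3250, 2720, 2550 and 1950. The 378 genes matched by the word cyclin varied less, at 2120, 1800, 1920 and 1830. That match also takes in F-box proteins described as cyclin-like, so this sum is not a marker of dividing cells. Of the vascular markers, sucrose transporters summed to 151, 243, 205 and 229 FPKM, higher with GRH in both lines. The single phloem protein gene was near level in Ilpum and higher with GRH in NIL. Genes of seed storage proteins were counted too: glutelins summed to 377, 873, 520 and 488 FPKM and prolamins to 43.8, 98.8, 69.5 and 4.49. Like many genes of the low end, both were higher with GRH in Ilpum and lower in NIL. The single gene for the replication clamp PCNA had 15.2, 5.52, 6.44 and 1.46 FPKM. In bulk leaf, fewer cells of a type and less RNA per cell cannot be told apart, and the part of tissue make-up in the results was not tested.

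Some cell wall genes were at the low end. The 3 cellulose synthases tested, of 14 annotated, were all higher with GRH in Ilpum, and by their FPKM lower in NIL. By the reads this direction in NIL was clear only for Os07g0424400 (interval -1.12 to -0.30), since the interval was -0.79 to 0.07 for Os07g0208500 and 0.07 to 0.89, on the higher side, for Os05g0176100. Os07g0208500 had 11.7 and 55.0 FPKM in Ilpum and 16.2 and 11.3 in NIL (-2.63, -3.65 to -2.34). Os07g0424400 had 25.6 and 52.9 against 31.6 and 11.2 (-2.44, -3.09 to -2.04). Os05g0176100 had 3.95 and 64.0 against 16.7 and 14.1 (-3.94), which lies outside the interval of -3.03 to -1.58 from its reads. It has 4 annotated transcripts, and whether they traded places was not tested. Laccase-7, Os01g0850700, an oxidase of the kind that polymerises lignin, had 70.6 and 119 FPKM in Ilpum and 170 and 17.6 in NIL (-3.95, -4.57 to -3.54). The xyloglucan-remodelling enzyme XTH8, Os08g0237000, was higher with GRH in both lines, with 22.1 and 320 FPKM in Ilpum and 7.84 and 26.1 in NIL (-2.18). Formin-like protein 16, Os02g0739100, which nucleates actin filaments, went from 33.9 to 145 and from 31.7 to 17.96 (-2.85). The wider list of wall genes was mixed, with 4 of 20 higher, 4 lower and a median of -0.20.

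Several defence genes of the low end were higher with GRH in both lines, with the larger response in Ilpum. Lipoxygenase Os04g0447100 had 15.6 and 339 FPKM in Ilpum and 14.4 and 53.0 in NIL (-2.55, -3.01 to -2.17). The more abundant lipoxygenase Os12g0559200 went the other way, with 44.1 and 3577 FPKM in Ilpum and 16.4 and 3848 in NIL (1.48, 1.41 to 1.91). The infested lines thus held similar amounts of the latter, and NIL started lower. The jasmonate-induced protein Os12g0247700 was counted at 7 and 5088 reads in Ilpum, and at 0 and 119 in NIL. Since NIL control was at 0, its response in NIL has no upper limit, and the difference of -4.05 on the FPKM scale is not a bound. Of the 29 jasmonate genes, GRH libraries were 2-fold or more above controls for 21 in Ilpum and 14 in NIL, beside 9.69% and 8.79% of all genes, and the difference of responses was at least 2-fold lower in 4, at least 2-fold higher in 2 and -0.34 at the median. WRKY factors, many of them defence regulators, had a median of -0.59, with 3 of 17 lower and 1 higher. WRKY 69, Os08g0386200, had 8.40 and 175 FPKM in Ilpum and 12.3 and 38.1 in NIL (-2.67, -3.57 to -1.98).

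Among protective proteins, the Bowman-Birk trypsin inhibitor Os01g0124401 had 36.9 and 532 FPKM in Ilpum and 190 and 398 in NIL (-2.76, -3.19 to -2.44), and Bax inhibitor-1, Os02g0125300, a suppressor of cell death, 38.8 and 239 against 70.2 and 64.5 (-2.71). The 7 class III peroxidases tested had a median of 0.29, with 2 at least 2-fold higher in NIL and 2 lower. The 2 lower ones were a pair that lay close together on chromosome 4. Os04g0688500 (35215245 to 35216755) had 26.4 and 70.2 FPKM in Ilpum and 52.6 and 11.8 in NIL (-3.44). Os04g0688100 (35187443 to 35189187) had 0 and 247 reads in Ilpum and 24 and 168 in NIL. Another pair, of thaumatin-like proteins on chromosome 12, was split by line. Os12g0628600 (26913087 to 26913851) had 116 and 971 reads in Ilpum and 2 and 2 in NIL, which leaves its response in NIL undetermined (interval -1.68 to 5.89). Os12g0629700 (26946904 to 26947698) had 0 and 0 reads in Ilpum and 155 and 304 in NIL. Each was thus counted almost wholly in a single line, with or without insects. The 37 genes of pathogenesis-related proteins, chitinases and inhibitors had a median of -0.16, with 5 higher and 4 lower. A first list of 55, with a median of 0.15, had included ERF factors and proteins of seed germination.

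The lowest gene of the ranking that had reads in every library was the amino acid transporter Os01g0597600 (chromosome 1, 23447173 to 23448687). It had 12.8 and 696 FPKM in Ilpum but 37.1 and 73.5 in NIL, a difference of -4.69 (-5.33 to -4.23). The MYB-list gene Os04g0517100 followed, with 15.0 and 206 FPKM against 60.1 and 39.2 (-4.30, -4.90 to -3.65). Other amino acid transporters stood at the high end, among them Os02g0191300 at 2.30 and Os04g0460300 at 2.27, and the 155 transporter genes had a median of 0.30, with 30 higher and 7 lower.

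**Figure D4:**
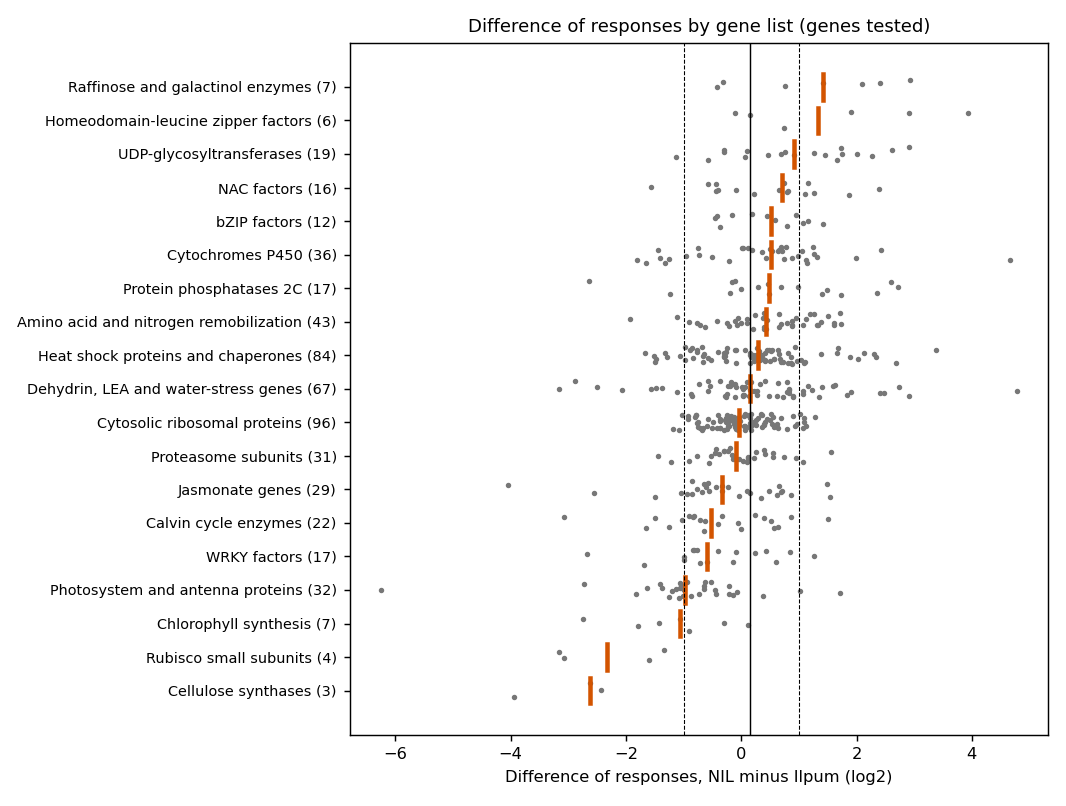
Difference of responses (log2, NIL minus Ilpum) of each tested gene in 19 lists, with the number of genes in brackets. Orange bars are list medians, the solid line the median of all genes (0.15) and the dashed lines 2-fold differences. Medians run from 1.42 for raffinose and galactinol enzymes to -2.63 for cellulose synthases. These 2 lists, and those of HD-ZIP factors and Rubisco small subunits, were drawn up after the values had been seen. All 3 cellulose synthases were among the 100 lowest genes, so the extremes of the figure follow in part from that choice.

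Features that the ranking did not use were compared between the ends. Several annotated transcripts were found for 26 of the 100 highest genes and for 41 of the 100 lowest. Of the genes with the higher response in NIL 34.3% had several annotated transcripts, of those with the lower response 41.8%, and of all genes 41.1%. The median transcript length was 1812, 1853 and 1894 bases. Chromosome 5, which carries Grh1, held 433 tested genes, 15.2% of them at least 2-fold higher in NIL and 7.85% lower, within the range over the 12 chromosomes of 13.3% (chromosome 7) to 18.2% (chromosome 9) and of 5.35% (chromosome 11) to 10.6% (chromosome 7).  The study took 6 genes for qPCR as higher in NIL or differing between the lines, and all were among the 785, with differences from 1.12 (Os10g0517500) to 3.93. Its other qPCR genes were chosen for their response within a line and are not counted here. Among those is the Rubisco gene Os12g0274700 of the low end (-1.60). Of the 6 genes taken as differing between the lines, the tonoplast aquaporin Os01g0975900 had 319 and 207 FPKM in Ilpum and 354 and 1131 in NIL (2.30, 2.09 to 2.55). These 6 genes were chosen on these samples, so their place is a description.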

How the data were processed

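Leaf RNA was measured in 4 samples, 1 per line and treatment. The study describes duplicate leaf samples, and whether each set of values pools duplicates is not given in the sources used here. The authors deposited FPKM and TPM values from StringTie 1.3.4d on HISAT alignments to IRGSP-1.0 with RAP-DB transcripts, run with a strand setting, per the file headers. The estimated counts were deposited by the authors as whole numbers and used as such. The lengths of the transcripts are those in the deposited table. Gene values are sums over transcripts. Descriptions were taken from the transcript table.

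Responses and their difference used FPKM + 1. Counting intervals are exact conditional intervals from the reads (2-by-2 table of line and treatment, scaled by library totals). Counting read pairs as separate reads narrows them below their nominal width. A count of 0 was taken to allow 3 reads per library. Genes named are the 20 highest and 20 lowest with reads in every library and an interval without 0, 5 and 5 with a listed 0, up to 4 of largest difference per list, and genes chosen for their role after their values were seen. Not all of them are printed. Lists are words searched in the descriptions of any transcript of a gene, 45 first and 10 added later, 5 of which narrow lists that had matched unrelated proteins. Some lists can still hold such genes. Members and lists were chosen with earlier results of these data known. The interval step was tested on simulated data. TMM factors came from edgeR 4.0.16 in R 4.3.3, and the rest was computed in Python 3.11.15 with scipy 1.17.1. Alternatives are given in the closing section.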

Additional observations from a re-analysis of the deposited data

Results flagged for a closer look

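Of the 50 genes at the ends of the ranking, 13 were at least 2-fold lower with GRH in one line and at least 2-fold higher in the other. Over all 4769 genes tested, 31 had such opposite responses. The 50 genes were taken for their large difference of responses, which favours opposite responses, so the 13 are a description only. The difference between the lines was not tested, since each condition has 1 library. Higher in NIL and lower in Ilpum were Os02g0649300 (HD-ZIP I, 3.93), Os07g0154100 (similar to Viviparous-14, 3.90) and Os10g0492900 (alpha-galactosidase, 2.92). The same direction held for Os06g0652300, similar to a GDP-sugar epimerase-reductase, with 32.8 and 5.10 FPKM in Ilpum and 34.9 and 104 in NIL (4.01). Os02g0629000, of unknown function, had 104 and 18.7 FPKM against 44.7 and 120.0 (3.82). Os01g0835600, an AT-hook protein, had a difference of 3.21, and the hypothetical proteins Os12g0242500 and Os01g0283300 had 3.19 and 3.16.

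Higher in Ilpum and lower in NIL was the peroxidase Os04g0688500 (-3.44). Os01g0192000, a CCCH zinc finger protein described as a negative regulator of leaf senescence, had 34.04 and 109 FPKM in Ilpum and 43.3 and 11.4 in NIL (-3.48). Os10g0554200 had 21.1 and 77.4 FPKM against 22.5 and 6.48 (-3.48), and the glycosyl transferase Os03g0300900 had 19.4 and 57.6 against 33.4 and 13.6 (-2.75). The latter difference lies just outside its counting interval of -4.71 to -2.76. The study lists a transcript of Os03g0300900 among those most induced in NIL, opposite to the gene value here, which sums 3 annotated transcripts. Os11g0384789, similar to a hydrolase, had 0 and 85 reads in Ilpum and 412 and 0 in NIL. Its difference of -12.45 rests on both zeros, and with 3 reads in their place it is -11.06.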

How the results depend on the processing

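No paired analysis was possible because each condition has 1 library, and for the same reason no library could be left out. The number of genes with the higher and the lower response in NIL was 785 and 402. Raising the minimum mean to 300 reads gave 232 and 86, and there were 3599 and 3022 with a minimum of 10, 264 and 124 with at least 100 depth-scaled reads, 516 and 234 in genes with a single annotated transcript, and 159 and 65 at 4-fold. With at least 10 reads in every library and centred responses, a setting chosen after seeing the data, 520 were higher and 526 lower. The last of these also centres the responses, which by itself gave 584 and 572, and the others change how many genes are tested or the threshold. Of the named genes, Os05g0592600, a translation initiation factor 2 related protein, had a difference of 1.43 from FPKM and of -0.55 from TMM-scaled counts, and the cause was not tested. Of the other comparisons of a gene with an alternative, 2169 moved by no more than the half-width of the counting interval, which has no limit for genes at 0, and 25 by more. Of the list medians, 628 moved by no more than the half-width of their order-statistic interval and 29 by more. The median of the photosystem list stayed between -1.15 and -0.88 and that of the genes naming ABA between 0.13 and 0.66 over 12 alternatives. The lower end of the ABA range is below the 0.15 of all genes in the main setting. The median of all genes itself ran from -0.02 to 0.24 over the alternatives. Wider ranges were 0.47 to 3.42 for HD-ZIP factors, 0.31 to 1.74 for protein phosphatases 2C, 0.67 to 1.56 for UDP-glycosyltransferases, 0.16 to 0.78 for AP2 and ERF factors and -2.80 to -1.52 for cellulose synthases. The medians of the dehydrin and wall lists changed sign in 2 of 12 each, that of the translation factors in 4 and that of the narrowed photorespiration list in 6.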

Other observations

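Heat shock proteins and chaperones, which refold damaged proteins, had 84 tested genes with a median difference of responses of 0.29. Of these, 13 (15.5%) were at least 2-fold higher in NIL and 7 (8.33%) lower, close to the 16.5% and 8.43% of all genes. Their median response was -0.54 in Ilpum and -0.27 in NIL. Nucleotide-binding site receptors, the family of most plant resistance proteins, had 7 tested genes with a median of 0.34, with 2 higher and 0 lower, after genes that only mention disease resistance were taken out of a list of 22. The 38 genes matched as receptor-like kinases had a median of 0.03, with 3 and 3, which changed sign in 7 of 12 alternatives. The 9 genes matched as aquaporins had a median of -0.12, which changed sign in 4 of 12 alternatives. Their largest difference was 1.14, so the word search missed the tonoplast aquaporin Os01g0975900 (2.30), and the median does not cover the whole family. The 503 genes with a transcript described as hypothetical or non-coding had a median of 0.30, with 113 (22.5%) higher and 42 (8.35%) lower. Some of them have another transcript with a described function.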
